A study of Mus musculus with 84 samples.

Results

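The genes described here build and run the primary cilium, the single antenna-like organelle that most neurons carry. Of the 43629 genes in the deposited count table, 39 were taken by symbol: 11 subunits of intraflagellar transport (IFT) complex B, 3 of IFT complex A, 6 subunits of the BBSome, 2 chaperonin-like proteins that assemble it, 9 proteins of the transition zone, 3 small GTPases, 4 kinesins and adenylyl cyclase Adcy3. All 39 were found, had counts in every library and passed the filter on low counts.

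The cilium makes no protein of its own, so everything in it is carried in along microtubules. IFT-B trains, pulled by kinesin-2 motors, travel to the tip. IFT-A trains return to the base, and the BBSome loads membrane proteins for export. The transition zone is the gate at the base that decides what may enter. In the brain, neurons and astrocytes carry an immotile primary cilium rich in receptors, while ependymal cells, which line the ventricles, and choroid plexus epithelium, which secretes cerebrospinal fluid, carry many cilia and build them with the same transport machinery.

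RNA came from the central nucleus of the amygdala (CeA) of 84 heterogeneous stock Collaborative Cross (HS-CC) mice, 43 females and 41 males. HS-CC mice are outbred descendants of the Collaborative Cross founder strains, so each carries its own mixture of founder genomes. Up to 3 came from a family, and since the labels do not say which, all were treated as independent. All 84 had the same treatment, a free choice between water and 10% ethanol for 13 weeks from a median age of 15 weeks, and there was no group without ethanol. Each animal gave 1 library from laser-dissected tissue, and expression was set against the share of fluid that an animal took as ethanol, its preference ratio.

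Mean preference over the 13 weeks was 0.272 ± 0.170 in females (SD, n = 43) and 0.210 ± 0.152 in males (SD, n = 41). Libraries held 24118965 to 36924667 counts in females and 24829435 to 42036566 in males. All 6 neuronal and all 7 central amygdala marker genes examined had counts in every library. Choroid plexus and motile cilium genes had counts too, and their amount differed widely between animals: 5 of 12 choroid plexus genes and 3 of 23 motile cilium genes were at 0 in at least 1 library. The 12 choroid plexus genes summed to 9.97 to 20672 CPM (counts scaled to a common library size) in females, with a median of 70.9, and to 8.66 to 24491 in males, with a median of 216.7. The 23 motile cilium genes summed to 68.6 to 649 CPM in females, with a median of 113, and to 67.0 to 569 in males, with a median of 115. In such dissected bulk tissue, fewer cells of a type and less RNA per cell cannot be told apart.

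Genes of the cilium often carry an X-box, the DNA element bound by RFX transcription factors, close to their start. RefSeq promoters (250 bases before to 50 after the start, build GRCm38.p6) were at hand for 36 of the 39 genes and were searched on both strands for the core GTTGCC and for the full element, GTNNCC followed by GNAAC with a spacer of 1 to 3 bases between them. The core can lie inside the full element. The full element was found for 14 of the 36 genes (38.9%), against 5.20% of the 27025 genes with a promoter in the same table. The core was found for 18 of them (50.0%), against 14.1%. These are matches of letters, not measured binding.

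Shown are the promoters of the 4 genes most closely tied to the choroid plexus content of the libraries in the tests below that have a promoter in the table (Tctn2, Bbs12, Arl13b and Ift74), and 4 further holders of the full element that also passed those tests (Mks1, Bbs1, B9d2 and Kif17), picked among the 14 after the values were seen. Capitals mark matches to the full element or its core, and positions count from the start.
Tctn2: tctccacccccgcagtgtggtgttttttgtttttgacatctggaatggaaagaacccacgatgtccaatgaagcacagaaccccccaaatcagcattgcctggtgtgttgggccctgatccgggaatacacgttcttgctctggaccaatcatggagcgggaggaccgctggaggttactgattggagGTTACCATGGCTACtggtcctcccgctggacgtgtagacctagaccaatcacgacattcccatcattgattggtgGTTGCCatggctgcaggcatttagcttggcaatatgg
Bbs12: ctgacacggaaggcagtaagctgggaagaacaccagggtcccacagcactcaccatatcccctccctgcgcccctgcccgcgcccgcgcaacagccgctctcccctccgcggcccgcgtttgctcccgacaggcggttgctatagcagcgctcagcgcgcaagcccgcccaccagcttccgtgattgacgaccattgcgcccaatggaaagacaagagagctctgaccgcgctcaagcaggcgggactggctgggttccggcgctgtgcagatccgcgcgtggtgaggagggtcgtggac
Arl13b: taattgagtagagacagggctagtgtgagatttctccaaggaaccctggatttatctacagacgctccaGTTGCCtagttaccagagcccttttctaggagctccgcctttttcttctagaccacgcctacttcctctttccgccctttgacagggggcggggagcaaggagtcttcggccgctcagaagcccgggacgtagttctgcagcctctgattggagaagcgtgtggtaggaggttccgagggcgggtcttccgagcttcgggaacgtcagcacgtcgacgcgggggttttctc
Ift74: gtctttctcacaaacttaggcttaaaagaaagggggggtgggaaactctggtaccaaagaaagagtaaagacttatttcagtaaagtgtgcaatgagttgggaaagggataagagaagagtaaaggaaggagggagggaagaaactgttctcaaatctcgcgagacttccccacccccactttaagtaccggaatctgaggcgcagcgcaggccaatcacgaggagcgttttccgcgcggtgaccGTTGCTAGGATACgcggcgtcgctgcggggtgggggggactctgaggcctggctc
Mks1: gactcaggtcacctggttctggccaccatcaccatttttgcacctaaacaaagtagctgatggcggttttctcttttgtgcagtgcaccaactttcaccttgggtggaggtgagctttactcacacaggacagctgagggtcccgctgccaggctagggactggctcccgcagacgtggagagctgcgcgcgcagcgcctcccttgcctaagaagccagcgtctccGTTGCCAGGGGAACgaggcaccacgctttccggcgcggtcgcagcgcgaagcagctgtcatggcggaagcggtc
Bbs1: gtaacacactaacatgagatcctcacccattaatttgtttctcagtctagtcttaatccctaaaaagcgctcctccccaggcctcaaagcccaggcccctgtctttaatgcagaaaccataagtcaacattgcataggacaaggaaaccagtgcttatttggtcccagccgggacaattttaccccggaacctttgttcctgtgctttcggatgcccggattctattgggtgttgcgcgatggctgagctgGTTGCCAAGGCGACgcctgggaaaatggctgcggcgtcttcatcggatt
B9d2: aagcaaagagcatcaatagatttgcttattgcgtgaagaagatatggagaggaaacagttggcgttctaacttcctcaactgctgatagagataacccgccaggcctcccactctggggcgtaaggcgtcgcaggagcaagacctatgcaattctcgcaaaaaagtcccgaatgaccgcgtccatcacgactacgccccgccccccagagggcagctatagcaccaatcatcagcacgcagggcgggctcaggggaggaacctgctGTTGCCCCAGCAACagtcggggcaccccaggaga
Kif17: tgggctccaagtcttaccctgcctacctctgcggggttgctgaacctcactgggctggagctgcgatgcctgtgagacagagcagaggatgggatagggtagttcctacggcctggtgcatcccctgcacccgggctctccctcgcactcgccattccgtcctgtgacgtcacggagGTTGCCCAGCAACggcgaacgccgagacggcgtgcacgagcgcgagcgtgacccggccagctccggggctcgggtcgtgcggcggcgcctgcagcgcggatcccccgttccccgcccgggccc
The Tctn2 promoter (chr5:124598499-124598798, plus strand) holds a full element that begins at position -62 and a separate core at 14. In the Mks1 promoter (chr11:87852965-87853264, plus strand) the element begins at -24 and fits the pattern on both strands. In Bbs1 (chr19:4906578-4906877, minus strand) it begins at 2, in B9d2 (chr7:25680530-25680829, plus strand) at 17, in Ift74 (chr4:94614241-94614540, plus strand) at -5 and in Kif17 (chr4:138262001-138262300, plus strand) at -73. Arl13b (chr16:62846991-62847290, minus strand) holds only the core, at -181, and Bbs12 (chr3:37312304-37312603, plus strand) holds neither. Of the genes that passed the test for choroid plexus content below, 6 of the 14 with a promoter held the full element, as did 8 of the 22 that did not pass.

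Levels between genes were compared as RPKM, that is CPM per kb of exon, since a longer transcript gives more reads. The exon length was the deposited value, 1 per gene, so rankings between genes also depend on that length and not only on the transcripts expressed. The 39 genes spanned a wide range, from a median of 0.561 RPKM for Kif7 to 73.7 for Arl3, and their own median was 7.54 against 4.99 over the 16320 genes tested. Arl3, the GTPase that releases lipid-anchored cargo inside the cilium, had 52.2, 75.7 and 119 RPKM in females (lowest, median, highest) and 41.2, 71.8 and 109 in males. Every library held more Arl3 per length than any library held of Adcy3, and the sexes overlapped.

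Within IFT-B, the small subunits stood highest. Ift22, a Rab-like subunit, had a median of 48.4 RPKM, Ift20, which links transport to the Golgi, 40.9, and Ift27, another Rab-like subunit, 21.8. The structural subunits of the train were lower, with medians of 10.2 for Ift52, 11.7 for Ift172, 9.50 for Ift81 and 9.16 for Ift74, which together with Ift81 binds tubulin. Ift57 had 15.8, Ift46 7.54 and Ift88, on which ciliary assembly depends, 3.90. Ift80 was the lowest of the 11 at 2.02. In IFT-A the medians were 8.40 for Ift43, 5.16 for Ift122 and 3.67 for Ift140.

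Among BBSome subunits Bbs4 stood out with 23.8, 27.9 and 33.7 RPKM in females (lowest, median, highest) and 22.5, 28.3 and 34.9 in males. No library of the other 5 subunits (medians of 3.54 to 9.57) reached the lowest Bbs4 value. The chaperonin-like Bbs10 and Bbs12, needed to fold and assemble the complex, were far lower at 2.09 and 1.33. The GTPase Arl6, which recruits the BBSome to membranes, had a median of 16.1, and Arl13b, the GTPase of the ciliary membrane that activates Arl3, 1.53.

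At the transition zone, B9d2 (22.4 RPKM) and B9d1 (10.5), which form a complex with Mks1, were far above Mks1 itself (1.18). The tectonics had medians of 1.86 (Tctn1), 4.06 (Tctn2) and 5.74 (Tctn3), and the remaining proteins 3.10 (Nphp4), 2.83 (Rpgrip1l) and 2.69 (Cc2d2a). The kinesin-2 subunits Kif3a and Kif3b, which also move cargo in axons, had 37.02 and 16.8, the dendritic kinesin-2 Kif17 had 5.04, and Kif7, which acts in Hedgehog signalling at the tip, 0.561. Adcy3, the adenylyl cyclase by which neuronal cilia are usually stained, had 9.59, 13.7 and 19.1 in females and 9.59, 13.6 and 17.8 in males.

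**Figure D1:**
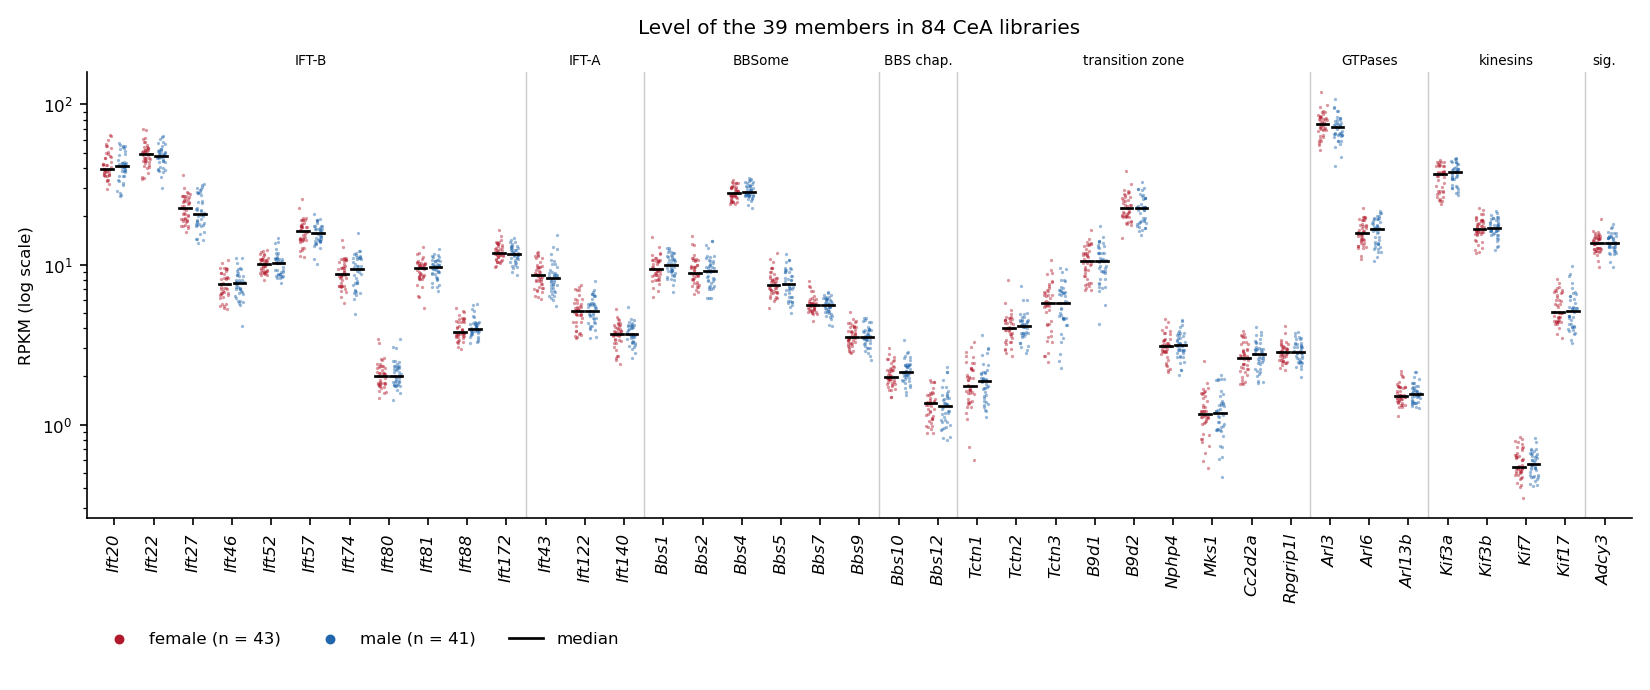
Level of each of the 39 genes in every library (RPKM, log axis), females left of males within each gene, with the median as a bar and genes ordered by role. Arl3 (median 73.7) stands highest and Kif7 (0.561) lowest, and in each gene the points of the sexes overlap.

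Some exons are shared with neighbouring genes, and no source used here states the strand setting of the counting. Genes on the other strand cover 22.1% of the exon bases of Adcy3 (Cenpo), 19.1% of Kif7 (9330171B17Rik), 11.3% of Tctn1 (Hvcn1) and 7.86% of Ift57 (Gm15518), and Sh2d5 on the same strand covers 1.62% of Kif17. Cenpo had a median count of 103.5 against 2689 for Adcy3, but 9330171B17Rik had 44.5 against 85 for Kif7, so the values of Kif7 and Tctn1 are uncertain. Sh2d5 had 3262.5 against 753 for Kif17. Bbs12 shares 1.31% of its exon bases with Cetn4 on the other strand and 1.31% with Fgf2 on the same strand. Their median counts were 131.5 and 23, against 97 for Bbs12. The effect of these small overlaps on Kif17 and Bbs12 was not tested.

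Variation between animals was modest for most genes. The biological coefficient of variation (BCV), edgeR's estimate of spread beyond counting error, had a median of 17.7% over the 39 genes, against 21.8% over all tested genes. Its ratio to edgeR's trend for genes of like abundance had nearly the same median in both, 0.691 and 0.697. The BCV lay below that trend in 38 of the 39 genes (97.4%, against 76.1% of all tested genes). Tctn3 was the exception, at 1.17 times a trend of 28.2%. The next highest ratios to the trend were 0.920 for Kif17, 0.888 for Ift20 and 0.842 for Ift122.

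Tctn3 had 2.45, 5.72 and 10.7 RPKM in females (lowest, median, highest) and 2.25, 5.75 and 9.58 in males, a span of 4.77-fold over all libraries. Tctn1 (6.04-fold) and Mks1 (5.31-fold) spanned more, with BCVs of 29.6% and 30.9%. At the other end, the highest Bbs4 library exceeded the lowest by only 1.55-fold. The BCV of transition zone genes had a median of 20.1%, against 15.3% for BBSome subunits. Both are descriptions, since BCV also depends on abundance.

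Whether the genes vary together was asked over the 741 pairs of log2 CPM values across the 84 libraries. The median r was 0.097, against -0.0025 over all 133163040 pairs of tested genes. Pearson's r was at least 0.5 for 49 pairs (6.61%, against 3.55% of all pairs) and at most -0.5 for 19 (2.56%, against 2.83%). With 2-sided permutation p-values adjusted over the 741 pairs, 329 passed 0.05, of which 112 were negative. The share of all pairs of tested genes that would pass was not computed, so this count does not set the members apart. Pairs from the same role group had a median r of 0.135 and pairs from different groups 0.086.

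The closest pair joined IFT-B to the BBSome's GTPase. Ift74 and Arl6 had r = 0.82 (rho = 0.82, permutation p = 1e-05, the smallest that 100000 resamples can give, adjusted p = 9e-05), and r was 0.81 without the 2 libraries farthest from the median of Ift74. Within the 4 runs of sample-sheet numbers, the only possible batches the labels give per animal, r was 0.68, 0.85, 0.86 and 0.75.

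The next 3 pairs had the same smallest p. Bbs5, the BBSome subunit that binds membrane lipids, and Arl6 had r = 0.79 (rho = 0.80, 0.78 without the 2 farthest libraries, 0.51 to 0.82 within runs). Ift140 and Bbs1 had r = 0.75 (rho = 0.70, 0.73 without the 2 farthest libraries, 0.45 to 0.84 within runs). B9d1 and Arl6 had r = 0.75 (rho = 0.76, 0.75 without the 2 farthest libraries, 0.66 to 0.80 within runs). Arl6 thus appears in 3 of the 4 closest pairs, each time with a gene of another role group.

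The 2 most opposed pairs both involved Arl3. Against Bbs1, Arl3 had r = -0.70 (rho = -0.70, adjusted permutation p = 9e-05, -0.67 without the 2 farthest libraries, -0.78 to -0.64 within runs). Against Adcy3 it had r = -0.66 (rho = -0.67, adjusted permutation p = 9e-05, -0.63 without the 2 farthest libraries, -0.84 to -0.42 within runs). Arl3 has the second shortest exon length of the 39 genes here, 822 bases, while Bbs1 has 5581 and Adcy3 6246.

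Transcript length moved with these opposed patterns. For each library the slope of centred log2 CPM on log2 exon length over all tested genes outside the list was taken as a measure of how far long transcripts were favoured, and it ran from -0.149 to 0.130 in females and from -0.177 to 0.125 in males. All 7 members with exons under 2000 bases were negatively correlated with it (r of -0.74 to -0.47), as were 11 of 13 with at least 2000 and under 4000 bases, whereas 17 of 19 with 4000 bases or more were positively correlated. Across the 39 genes, which are not independent replicates, log2 exon length and this correlation had r = 0.81. The first principal component of the members, with 22.8% of their variance, had |r| = 0.90 with the length measure, and the second, with 17.3%, had |r| = 0.83 with the motile cilium score and 0.69 with Ttr. What sets the length measure was not tested.

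With Ttr, sex, run and the length measure removed from each gene, 19 pairs had r of at least 0.5 (2.56%, against 1.86% of all pairs of tested genes) and 0 had r of -0.5 or less (against 1.33%), and the median r was 0.054. Ift74 and Arl6 still had r = 0.66 and Bbs5 and Arl6 0.62. Ift140 and Bbs1 had 0.49, B9d1 and Arl6 0.46, and Arl3 had -0.41 with Adcy3. The residual r of Bbs1 and Arl3 was -0.23 (adjusted permutation p = 0.113). Members within 5 Mb of each other on a chromosome formed 6 pairs, with r of 0.43 for Ift81 and Tctn2, 0.33 for Bbs7 and Bbs12, 0.13 for Tctn1 and Tctn2, 0.090 for Arl6 and Arl13b, -0.086 for Bbs2 and Rpgrip1l, and -0.28 for Ift81 and Tctn1.

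**Figure D2:**
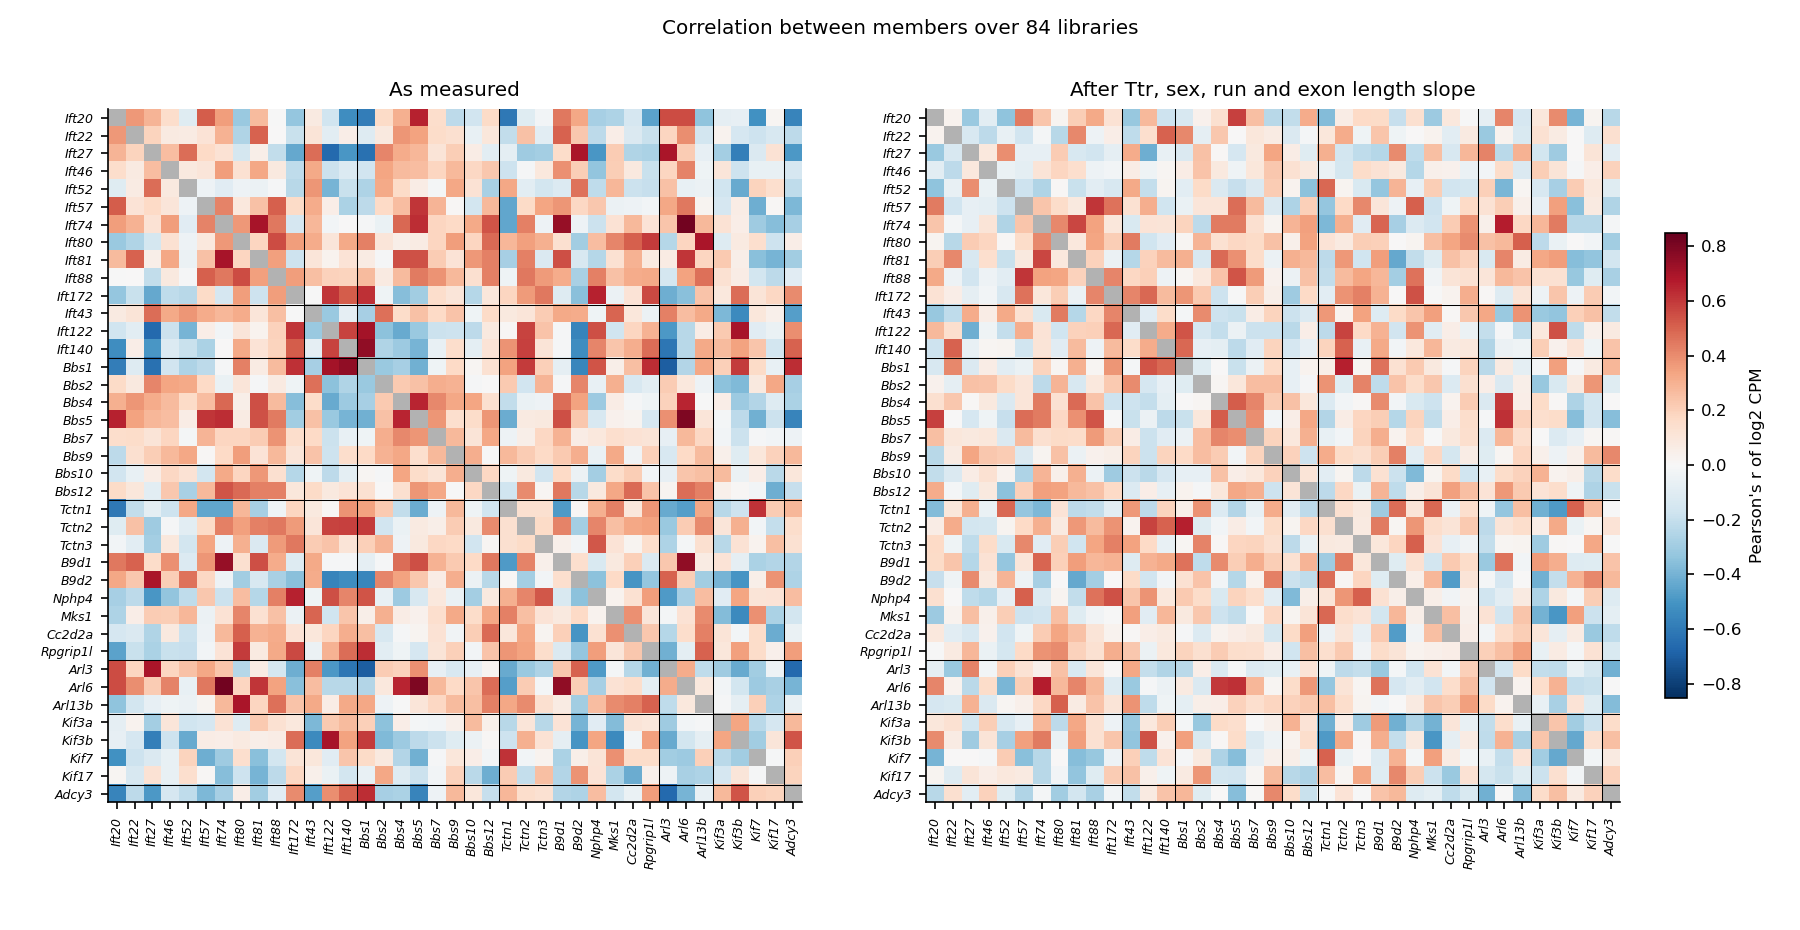
Pearson's r of log2 CPM over 84 libraries for every pair of the 39 genes, as measured (left) and after Ttr, sex, run and the exon length measure were removed (right), with lines between role groups and the diagonal in grey. At left, Arl3 is blue against Bbs1 (-0.70) and Adcy3 (-0.66). At right, no pair reaches -0.5 and Ift74 with Arl6 (0.66) remains among the reddest.

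Transthyretin (Ttr), secreted by the choroid plexus, was used as the measure of choroid plexus content. It ran from 0.302 to 18855 CPM in females, with a median of 51.9, and from 0.0988 to 23631 in males, with a median of 182. The motile cilium score, the mean z-score of 23 ependymal genes, followed it closely over the 84 libraries (r = 0.88, rho = 0.85, adjusted permutation p = 9e-05 over 9 relations computed, 0.88 without the 2 farthest libraries, 0.82 to 0.94 within runs). The counts of every tested gene were therefore fitted on log2 CPM of Ttr with sex as a term, by edgeR's quasi-likelihood test with Benjamini-Hochberg adjustment over 16320 genes. Slopes are given as the log2 change per 10 doublings of Ttr, close to the distance between its lower and upper quartiles over the 84 libraries, 1.40 and 12.0 log2 CPM.

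Of the 39 genes, 14 sloped up with Ttr at adjusted p under 0.05, where 12.6% of all tested genes did, and 2 sloped down, where 12.2% did. The median slope was 0.080 over the 39 genes and -0.012 over all tested genes. Within the 4 runs taken alone 1, 8, 1 and 4 members passed upwards and 0, 1, 0 and 0 downwards, where the runs called 2.27%, 10.2%, 3.01% and 9.9% of all genes in either direction. Of the 16 genes, 15, 16, 14 and 16 had the same sign in those runs as in all animals. The 16 were chosen from all animals, which include each run, so this is no independent check. Without the 5 libraries with the most Ttr, 13 of the 16 passed again, while Bbs1, Ift43 and Mks1 did not. With the exon length measure as a covariate, an alternative added after seeing the data, all 16 passed, as did Rpgrip1l upwards (0.11 ± 0.032, adjusted p = 0.0034) and Arl3 (-0.12 ± 0.033, adjusted p = 0.0034) and Ift27 (-0.13 ± 0.048, adjusted p = 0.0319) downwards. That made 15 upwards and 4 downwards, where 15.5% and 16% of all genes passed.

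In IFT-B, 4 of 11 sloped up: Ift74 (0.29 ± 0.054 SE, adjusted p = 1.41e-05), Ift80 (0.27 ± 0.045, adjusted p = 1.27e-06), Ift88 (0.18 ± 0.037, adjusted p = 9.08e-05) and Ift81 (0.14 ± 0.043, adjusted p = 0.008). Ift74 had 5.78, 8.77 and 14.2 RPKM in females (lowest, median, highest) and 4.90, 9.40 and 15.8 in males. Ift80 had 1.47, 2.02 and 3.44 in females and 1.43, 2.02 and 3.43 in males. The sexes overlapped in both genes. In IFT-A, Ift43 (0.18 ± 0.058, adjusted p = 0.013) and Ift140 (0.16 ± 0.043, adjusted p = 0.00267) sloped up.

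Of the 6 BBSome subunits only Bbs1 passed (0.15 ± 0.044, adjusted p = 0.00698), but the chaperonin-like Bbs12 had the steepest slope of the 39 genes (0.34 ± 0.059, adjusted p = 2.15e-06). Bbs12 had 0.892, 1.36 and 1.90 RPKM in females (lowest, median, highest) and 0.808, 1.31 and 2.28 in males. Among the GTPases, Arl6 (0.17 ± 0.050, adjusted p = 0.00577) and Arl13b (0.20 ± 0.036, adjusted p = 5.44e-06) sloped up, while the value for Arl3 was -0.098 ± 0.051 (adjusted p = 0.166).

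At the transition zone 4 of 9 sloped up and 1 down. Tctn2, a tectonic needed for entry of membrane proteins, had the smallest adjusted p of the 39 genes (slope 0.30 ± 0.049, adjusted p = 8.04e-07). It was joined by Mks1 (0.32 ± 0.087, adjusted p = 0.00368), B9d1 (0.25 ± 0.068, adjusted p = 0.00258) and Cc2d2a (0.24 ± 0.054, adjusted p = 2.73e-04). B9d2, though a partner of B9d1 and Mks1, sloped down (-0.19 ± 0.055, adjusted p = 0.00488). B9d2 had 14.6, 22.4 and 38.6 RPKM in females (lowest, median, highest) and 15.3, 22.5 and 32.9 in males.

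Of the 4 kinesins 0 sloped up, and Kif17 sloped down (-0.26 ± 0.066, adjusted p = 0.00124). It had 3.49, 5.04 and 8.12 RPKM in females (lowest, median, highest) and 3.22, 5.16 and 9.76 in males. Kif3a, Kif3b and Adcy3 had slopes of -0.020, -0.018 and -0.022, none past the threshold.

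Fitted on the motile cilium score in place of Ttr, the same 16 genes passed in the same directions, joined upwards by Rpgrip1l (0.082 ± 0.023 per unit of score, adjusted p = 0.00344) and Bbs9 (0.073 ± 0.025, adjusted p = 0.0168). That made 16 upwards and 2 downwards, where 15.8% and 16.4% of all genes passed, the score's own 23 genes among them. Tctn2 led again with 0.23 ± 0.025 (adjusted p = 3.68e-13). With both measures in 1 fit, 0 members passed for Ttr and 13 passed upwards for the score, where 0.386% and 10.6% of all genes passed. For Ttr, 0 members upwards and 2 downwards had an unadjusted p under 0.05, and the share of all genes at that threshold is not given. The cell source of the members' RNA was not tested.

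**Figure D3:**
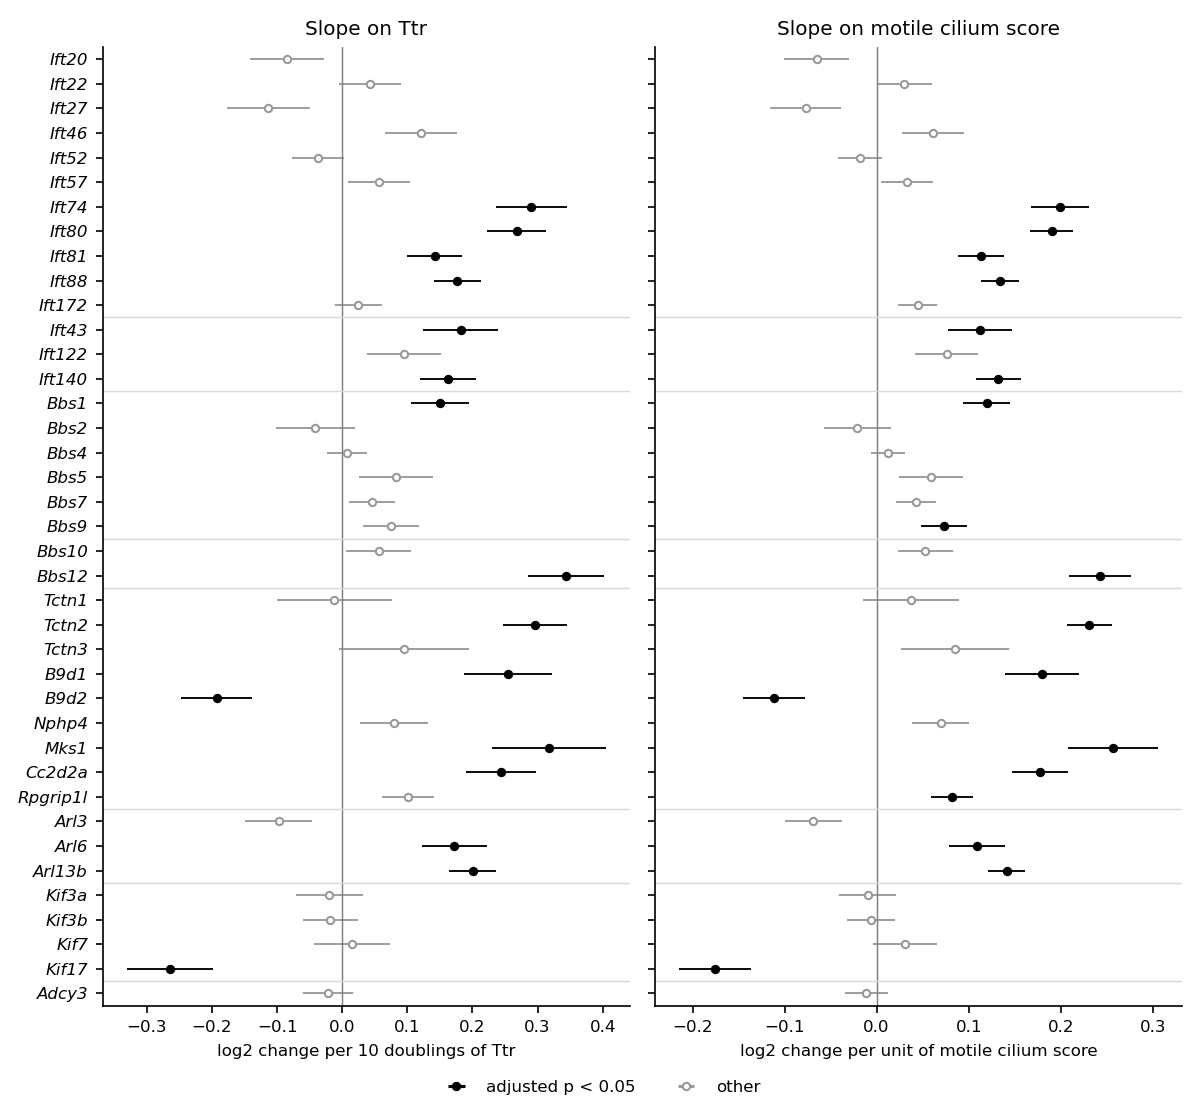
Slope ± SE of each of the 39 genes on Ttr (log2 change per 10 doublings, left) and on the motile cilium score (log2 change per unit, right) over 84 libraries, ordered by role as in the plot of levels, with filled points at adjusted p under 0.05. Tctn2, Ift80 and Bbs12 lie to the right in both panels, and B9d2 and Kif17 are the only filled points left of 0.

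Other genes of the cilium were taken as a list of 66, chosen with earlier results of these data known, of which 65 were tested. Of these, 19 sloped up with Ttr and 3 down, and 31 and 4 did so with the motile cilium score. The shares of all genes that passed for either measure are given above. Among those of smallest p were the ciliogenic factor Rfx2 (0.96 ± 0.089 per 10 doublings of Ttr, adjusted p = 1.30e-15), the transition zone proteins Tmem237 (0.58 ± 0.059) and Tmem107 (0.45 ± 0.058), and the IFT-B subunit Ttc30b (0.30 ± 0.043). Smo, the transducer of Hedgehog signals that enters the cilium (0.53 ± 0.094), and Gpr161, a ciliary receptor that restrains the Hedgehog pathway (0.64 ± 0.13), also sloped up, while Ptch1, the Hedgehog receptor, had a slope of -0.055 ± 0.083 (adjusted p = 0.695). Those that sloped down included the kinase Ttbk2 (-0.16 ± 0.044) and the kinesin-2 adaptor Kifap3 (-0.10 ± 0.034). By group, 7 of 19 transition zone and basal body genes, 5 of 15 IFT and motor genes, 3 of 13 BBSome and cargo genes, 2 of 13 ciliary signalling genes and 2 of 5 transcription factors sloped up, where 12.6% of all tested genes did. Differences between these groups were not tested.

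The relation to drinking was asked of mean, week 1 and week 13 preference, in all 84 animals (sex being a covariate), in females and in males, each without and with log2 CPM of Ttr as a covariate. None of the 39 genes passed adjusted p 0.05 in any of these 18 fits by edgeR's quasi-likelihood test, and 0 did by limma-voom. At an unadjusted p under 0.05 edgeR gave at most 3 of the 39. The share of all genes is given at adjusted p 0.05 only, here and below, so unadjusted counts have no background beside them. At adjusted p 0.05 the background was low too: for mean preference 0% of all genes passed in all 6 fits. For week 1 it was 0.0306% in all animals, 0% in females and 0.0368% in males without Ttr, and 0.0245%, 0% and 0.0123% with it. For week 13 it was 0.0368% in females without Ttr and 0% in the other 5 fits. The same 18 fits called 0 of the 65 other cilium genes.

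The median of the members' slopes on mean preference was lower with Ttr in the fit. This median, as a log2 change per 0.5 rise in preference, was 0.014 with Ttr and 0.045 without it in all animals, 0.040 and 0.082 in females, and 0.0057 and 0.030 in males. Over all genes the median lay between -0.0016 and 0.0078 in those fits. Taken singly, 32 of the 39 slopes were smaller in size with Ttr than without it in all animals, 28 in females and 20 in males. In all animals 26 were positive either way. The median SE of a member was 0.086 with Ttr and 0.087 without it, more than the size of either median. This is the SE of a single gene's slope and does not measure the uncertainty of the median slope. The change of the median with Ttr was not tested. Fewer slopes on week 1 preference shrank with Ttr: 15 of 39 with the sexes pooled, 16 among females and 15 among males. On week 13 preference, 28, 27 and 17 shrank, in the same order. None of these counts, those on mean preference included, was set against all genes.

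At an unadjusted p under 0.05, 1 member passed for mean preference in all animals without Ttr and 0 with it. The 4 of smallest p without Ttr were Tctn2 (0.20 ± 0.095, p = 0.0372), Nphp4 (0.17 ± 0.087), Bbs12 (0.20 ± 0.12) and Arl13b (0.11 ± 0.069), and edgeR's adjusted p was 0.9995 for each. With Ttr they were Nphp4 (0.15 ± 0.088), Tctn2 (0.11 ± 0.083), Tctn3 (0.21 ± 0.17) and Ift46 (-0.10 ± 0.092). Without Ttr, 3 of the 4 leading genes were among those that sloped up with Ttr, where 16 of the 39 members passed for Ttr in either direction. This overlap was not tested.

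In females the 4 of smallest p without Ttr were Tctn2 (0.32 ± 0.12, edgeR adjusted p = 0.499), B9d1 (0.33 ± 0.14), Cc2d2a (0.25 ± 0.13) and Bbs12 (0.25 ± 0.14), all transition zone genes except Bbs12. With Ttr they were B9d1 (0.29 ± 0.14), Tctn2 (0.21 ± 0.11), Ift43 (0.21 ± 0.13) and Bbs12 (0.19 ± 0.13). In males they were Kif7 (-0.20 ± 0.14), Nphp4 (0.17 ± 0.13), Arl13b (0.12 ± 0.10) and Bbs4 (0.093 ± 0.078) without Ttr, and Kif7 (-0.20 ± 0.14), Bbs4 (0.10 ± 0.080), Nphp4 (0.14 ± 0.14) and Kif3a (0.091 ± 0.11) with it. The slope of Tctn2 in males was 0.049 ± 0.14, and the sexes' slopes differed for 0 of the 39 genes by edgeR's test of the difference (0% of all genes, and 0 of the 39 at an unadjusted p under 0.05). The smallest p values there belonged to Kif7, B9d1, Tctn2 (0.28 ± 0.19, female minus male, adjusted p = 0.9993) and Cc2d2a.

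**Figure D4:**
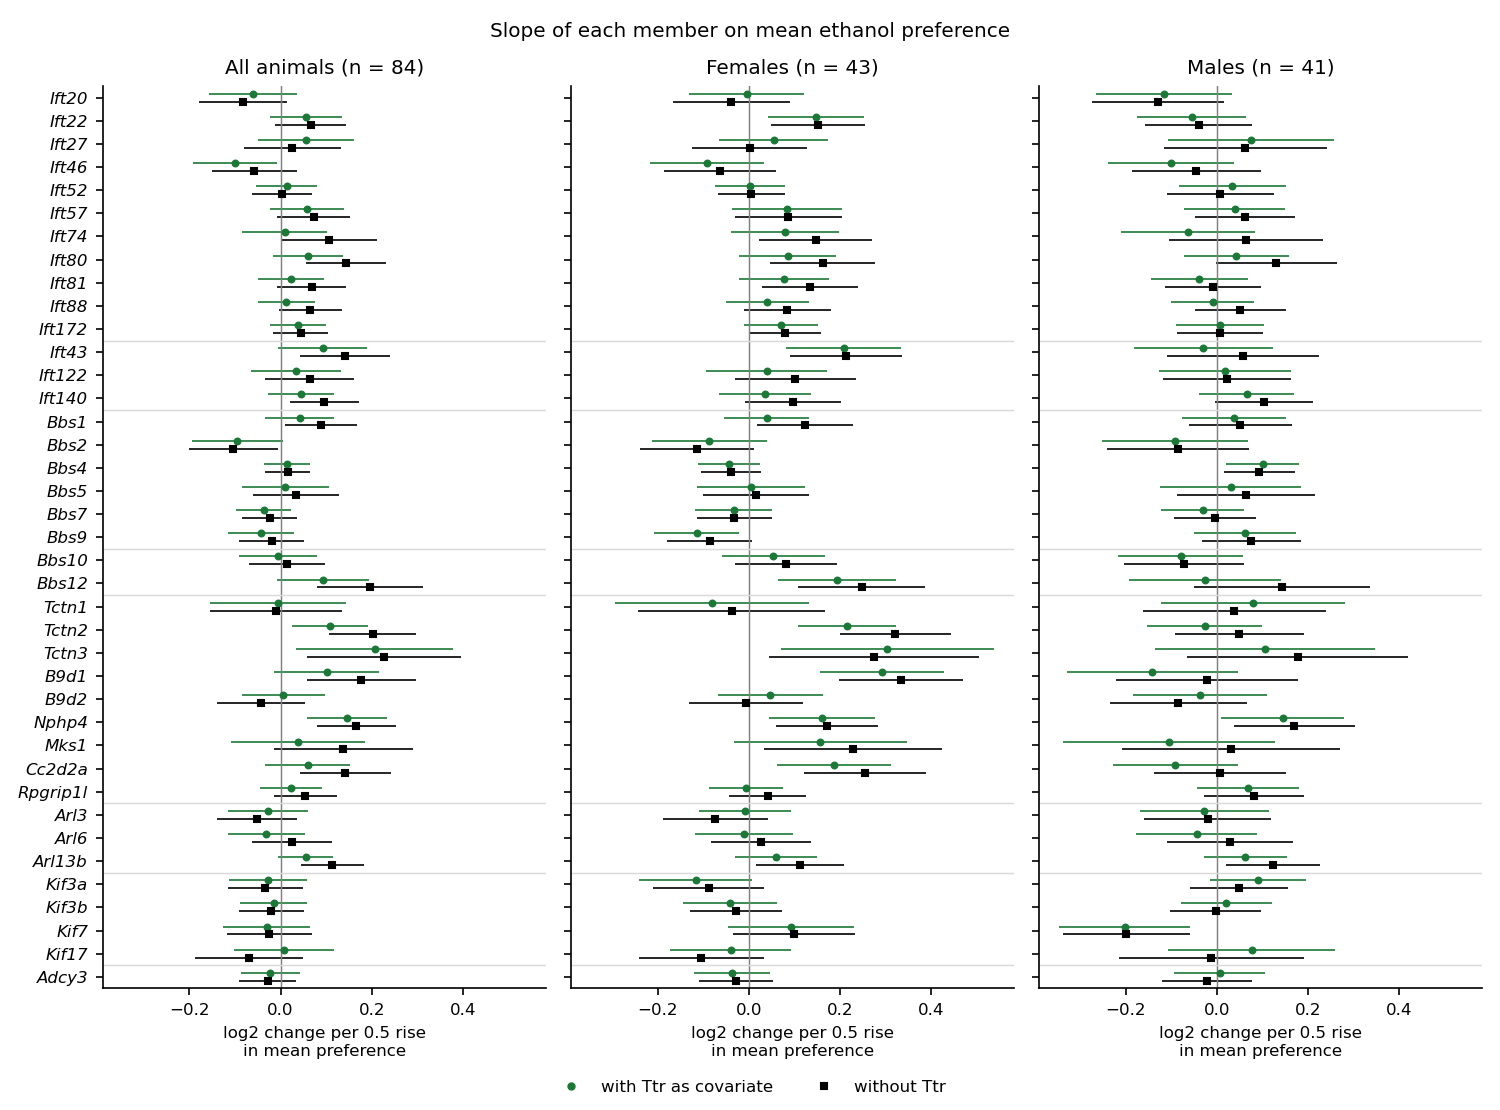
Slope ± SE of each of the 39 genes on mean preference (log2 change per 0.5 rise) in all animals, females and males, with Ttr as a covariate (green circles, above) and without it (black squares, below). No gene passed adjusted p 0.05 in any panel, and the green points of Tctn2, Bbs12 and B9d1 lie nearer to 0 than the black ones in all animals.

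Week 1 preference gave medians of 0.015 with Ttr and 0.015 without it in all animals, and 0 members passed an unadjusted p of 0.05 in either fit. The leading genes were Kif7 (-0.14 ± 0.089), Bbs12 (0.13 ± 0.11), Ift57 (0.075 ± 0.074) and Bbs9 (-0.066 ± 0.067) in all animals without Ttr. With Ttr they were Bbs12 (0.15 ± 0.091), Kif7 (-0.14 ± 0.089), Arl13b (0.074 ± 0.056) and Ift57 (0.079 ± 0.074). In females Tctn3 (0.42 ± 0.22), Bbs4, Tctn1 and Bbs9 had the smallest p without Ttr, and Tctn3 (0.41 ± 0.23), Bbs12, Cc2d2a and B9d1 with it. In males these were Kif7 (-0.21 ± 0.12), Bbs5, Bbs4 and Ift46 without Ttr and Kif7, Ift46, Bbs5 and Arl13b with it.

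Week 13 preference gave medians of 0.022 with Ttr and 0.044 without it in all animals, 0.019 and 0.062 in females, and 0.017 and 0.031 in males. In all animals Tctn2 (0.24 ± 0.072), Nphp4 (0.15 ± 0.067), Bbs1 (0.12 ± 0.060) and Ift122 (0.14 ± 0.074) had the smallest p without Ttr. In females these were Tctn2 (0.32 ± 0.093), Cc2d2a (0.27 ± 0.10), Bbs12 (0.22 ± 0.11) and Ift81 (0.16 ± 0.082), and in males Nphp4 (0.20 ± 0.099), Ift57 (0.13 ± 0.081), Tctn2 (0.13 ± 0.11) and Ift81 (-0.097 ± 0.080). With Ttr in the fit they were Tctn2 (0.16 ± 0.063), Nphp4, Bbs2 and Ift122 in all animals, Tctn2 (0.21 ± 0.087), Cc2d2a, Ift22 and Bbs12 in females, and Nphp4 (0.19 ± 0.099), Ift57, Ift81 and Tctn2 in males.

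Tctn2 was the member nearest to a call for drinking. It had 2.70, 4.01 and 8.05 RPKM in females (lowest, median, highest) and 2.82, 4.15 and 7.38 in males. For week 13 preference its edgeR adjusted p was 0.0919 in females and 0.664 in all animals without Ttr, and 0.9999 and 0.980 with it, where the slopes were 0.21 ± 0.087 and 0.16 ± 0.063. Replacing preference by week 13 ethanol intake (per 10 g/kg) made it the 1 member to pass: the slope was 0.37 ± 0.073 in females (edgeR adjusted p = 9.69e-04, where 3.5% of all genes passed) and 0.29 ± 0.066 in all animals (adjusted p = 0.031, where 0.411% did). It passed for mean intake in females too (0.40 ± 0.10, edgeR adjusted p = 0.0369, where 1.26% of all genes passed, 1.24% upwards and 0.0184% downwards). For week 13 intake in females, 1 of 39 members was a smaller share than the 3.5% of all genes.

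With Ttr in the fit the slopes of Tctn2 on intake were smaller and missed the adjusted threshold, but stayed positive and larger than their SEs. For week 13 intake the slope was then 0.27 ± 0.075 in females (edgeR adjusted p = 0.305) and 0.20 ± 0.060 in all animals (adjusted p = 0.432). For mean intake in females it was 0.29 ± 0.095 (adjusted p = 0.588). These fits held Ttr and not the motile cilium score, with which Tctn2 had the closer correlation. Values of fits with the score in place of Ttr are not given here. Whether Ttr or motile cilium content accounts for the relation was not tested. Leaving out the 5 libraries with the most Ttr gave 0.27 ± 0.075 for week 13 intake in females (edgeR adjusted p = 0.118) and 0.22 ± 0.058 in all animals (adjusted p = 0.295), and in females that removed 1 animal, the one with the highest Tctn2 value, whose week 13 intake of 19.0 g/kg was also high. That fit was not run for mean intake. With run as a covariate the edgeR adjusted p for week 13 intake was 0.00229 in females and 0.053 in all animals. The slope on mean preference within the 4 runs was 0.14, 0.51, 0.37 and -0.0082.

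Ttr itself, as log2 CPM, had r = 0.22 with week 13 intake over all 84 animals (rho = 0.17, permutation p = 0.0401, adjusted p = 0.12 over 9 relations, 0.26 without the 2 farthest libraries, -0.18 to 0.38 within runs). With mean preference it had r = 0.17 (rho = 0.13, adjusted permutation p = 0.161, 0.21 without the 2 farthest libraries, -0.17 to 0.52 within runs). The motile cilium score had r = 0.24 with week 13 intake (rho = 0.13, permutation p = 0.0271, adjusted p = 0.12, 0.17 without the 2 farthest libraries, -0.081 to 0.45 within runs). Tctn2 had r = 0.54 with Ttr (rho = 0.52, adjusted permutation p = 6.5e-05 over the 39 genes, 0.50 without the 2 farthest libraries, 0.43 to 0.70 within runs) and 0.70 with the motile cilium score (rho = 0.64, adjusted permutation p = 3.5e-05, 0.65 without the 2 farthest libraries, 0.52 to 0.81 within runs). Without the 5 libraries with the most Ttr its slope per 10 doublings was 0.19 ± 0.045 (edgeR adjusted p = 8.93e-04), against 0.30 with them.

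**Figure D5:**
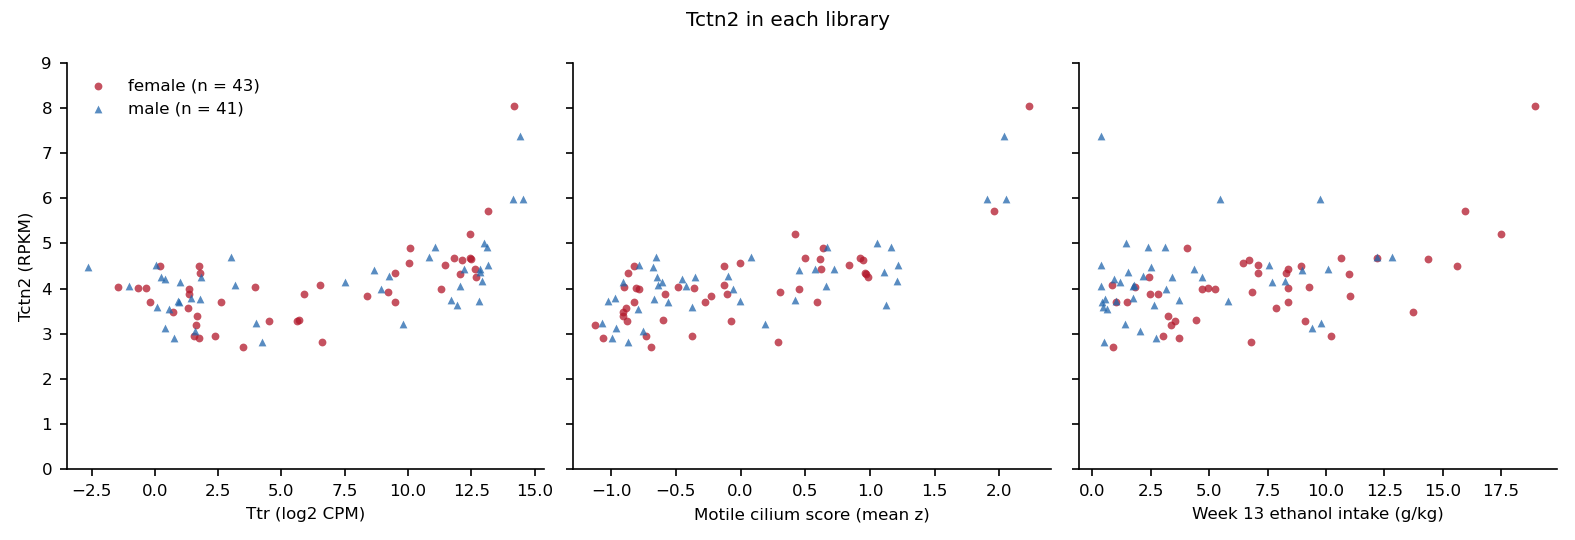
Tctn2 (RPKM) in each of 84 libraries, females as red circles and males as blue triangles, against log2 CPM of Ttr (left), the motile cilium score (middle) and week 13 ethanol intake (right). The 5 highest libraries all lie at the right end of the first and second panels, whereas in the third they spread over low and high intake, with the highest female (8.05 RPKM) at the highest intake.

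The sexes were compared last. With mean preference as a term, 0 of the 39 genes passed for female minus male by edgeR's test (0 at an unadjusted p under 0.05), where 0.0858% of all genes did, 8 higher and 6 lower in females. The 4 of smallest p were Arl3 (0.095 ± 0.056, higher in females), Bbs1 (-0.081 ± 0.051), Bbs10 (-0.084 ± 0.054) and Kif3a (-0.081 ± 0.054), each at adjusted p = 0.943. Arl3 averaged 76.3 ± 12.8 RPKM in females and 71.7 ± 13.2 in males (SD, n = 43 and 41), a difference smaller than the spread within either sex. The median difference was -0.026 over the 39 genes and -0.0045 over all genes, and 13 of 39 were higher in females. The 65 other cilium genes gave 0 calls as well.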

How the data were processed

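Per the labels' protocols, RNA of laser-dissected CeA was made into stranded poly(A) libraries. The authors deposited whole-number read counts per gene, not normalized, and the submitters' processing notes name STAR, Subread featureCounts 1.6.0 and GRCm38/mm10. No source used here states the strand setting or the annotation. The table's 3 columns of undetermined reads were not used. Genes passing filterByExpr (minimum count 10, minimum total 15), 16320 in all, were fitted with edgeR 4.0.16 (TMM, robust quasi-likelihood), with limma 3.58.1 and DESeq2 1.42.0 as alternatives in R 4.3.3, and p-values were adjusted over all genes. The SE of a slope is its size divided by the root of F. Log2 CPM used a prior count of 2. Permutation tests were 2-sided with 100000 resamples. Per comparison the text names the members at adjusted p under 0.05 or, where fewer than 4 pass, the 4 of smallest p. The members and lists were chosen with earlier results of these data known. Fits were tested on simulated data. Some genes of the wider cilium list are not reported here by name.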

Additional observations from a re-analysis of the deposited data

How the results depend on the processing

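The counts of members called, and of close pairs, moved by over 1.5 times in 6 recomputed results, given here. Ethanol intake in place of preference gave 1 call, Tctn2, for mean intake in females, for week 13 intake in all animals and for week 13 intake in females, where run as a covariate also gave 1, against 0 for preference. With the motile cilium score added, 0 members passed for Ttr (edgeR, 2 at an unadjusted p under 0.05), and these slopes on Ttr turned negative: -0.20 for Tctn2, -0.10 for Ift80, -0.048 for Bbs12, -0.042 for Arl13b, -0.084 for Ift88, -0.084 for Cc2d2a, -0.0035 for B9d1, -0.14 for Ift140, -0.28 for Mks1, -0.12 for Bbs1 and -0.090 for Ift81. Ttr and the score are correlated at r = 0.88, and the cause was not tested. With Ttr, sex, run and exon length removed, 19 pairs had r of at least 0.5, against 49 as measured. The exon length covariate, the score at week 13 and the intake fits with run or without 5 libraries were chosen after seeing the data. DESeq2 and limma-voom called the same 16 members for Ttr as edgeR. No paired analysis was possible because replicate numbers follow listing order and pair nothing. Families, lanes and the 4 passes of euthanasia are not given per animal and could not be modelled.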
